A study of Mus musculus with 4 samples.

Results

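The cytokine receptors built around the common gamma chain were compared across 3 kinds of mouse innate lymphoid cell. The set holds 10 of the 30731 genes counted in all 4 libraries, taken by name: Il2ra, Il2rb, Il2rg, Il4ra, Il7r, Il9r, Il15ra, Il21r, Crlf2 and the kinase gene Jak3. Each symbol matched 1 Ensembl gene, and 10 of the 10 had enough reads to be tested.

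Innate lymphoid cells are lymphocytes without rearranged antigen receptors, and the series profiled RNA of 3 groups of them, in cells that also served for Hi-C, which maps contacts between parts of the genome. Group 1 was 1 library of natural killer (NK) cells from spleens, and group 2 was 1 library of ILC2 from bone marrow, both from pooled wild type C57BL/6 mice aged 8 to 12 weeks. The ILC2 had been grown in IL-25 and IL-33 together with IL-2 and IL-7, at 10 ng/ml, whereas the labels name no cytokine for NK cells. Group 3 was 2 libraries of MNK-3, an ILC3-like line that traces to NIH-Swiss thymocytes of fetal day 15 and was kept in IL-7 and IL-15 (10 ng/ml), which makes it 1 line and not a set of animals. Cell type therefore coincided with tissue and culture, and for MNK-3 also with strain, and these cannot be told apart. In such bulk samples fewer cells with a transcript and less transcript per cell also cannot be told apart. Nothing in the labels says that the MNK-3 pair came from separate cultures, so p-values measure only the spread between those libraries, which may be technical.

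Receptors of this family share the gamma chain, encoded by Il2rg, and each adds a chain of its own that sets which cytokine is bound. IL-2 and IL-15 share a beta chain (Il2rb) and have separate alpha chains (Il2ra and Il15ra), while IL-4, IL-7, IL-9 and IL-21 each use 1 private chain with the gamma chain. JAK3 sits on the gamma chain and JAK1 on the partner chains, and together they activate STAT factors. Crlf2 encodes the receptor of thymic stromal lymphopoietin (TSLP), a gamma-like chain that pairs with the IL-7 receptor alpha chain and signals without the gamma chain. IL-15 is known as a survival factor of NK cells, IL-7 of ILC2 and group 3 cells, and IL-2 and IL-9 as growth signals of ILC2.

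Reads in the shared genes ranged from 4637812 in NK to 25617762 in MNK-3 replicate 1, and levels are given as CPM, the usual depth-scaled read count, over those genes with exact Poisson 95% intervals, which cover counting error only. The summed defining markers were highest where the labels place them: 6 NK markers summed to 5637 CPM in the NK library and to at most 79.6 CPM elsewhere, 6 ILC2 markers to 5566 CPM in ILC2 and at most 148 CPM elsewhere, and 6 ILC3 markers to 1869 and 2734 CPM in the MNK-3 pair and at most 219 CPM elsewhere. Single markers did not all do so: Il17rb, on the ILC2 list, had 3.98 CPM in ILC2 beside 3.88 CPM in NK and 25.8 and 2.50 CPM in the MNK-3 pair. Il22, on the ILC3 list, was weak but highest in the MNK-3 pair, at 7.73 and 8.76 CPM against 4.62 CPM in ILC2 and 0.216 CPM in NK. Summed T cell markers (9 genes) lay between 16.2 and 219 CPM, B cell markers (6 genes) between 66.9 and 169 CPM, and myeloid markers (6 genes) between 1.45 and 240 CPM, with S100a8 at 0 in 3 libraries. A single gene made up most of the B cell sum in each library and most of the myeloid sum in NK. Ighm had 127 CPM in NK, 129 CPM in ILC2, and 51.3 and 65.3 CPM in the MNK-3 pair. Itgam had 233 of the 240 CPM of the myeloid sum in NK. Markers of mast cells and basophils (4 genes) summed to at most 13.6 CPM and those of erythroid cells (3 genes) to at most 1.51 CPM. MNK-3 replicate 1 stood apart: 75.8% of its reads fell in no gene against 23.1% to 47.1% in the other libraries, and 95.6% of the shared genes had a read against 69.6% to 76.0%. Protein-coding genes with 0 reads in MNK-3 replicate 2 had a median of 14.6 reads per kb of exon in replicate 1 (95th percentile 70.7), so levels of weak genes in MNK-3 are given for each replicate.

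The make-up of the receptor set differed between the cell types. The 10 genes summed to 2366 CPM in NK, 3624 CPM in ILC2, and 1177 and 1412 CPM in the MNK-3 pair. In NK cells the shared IL-2 and IL-15 beta chain Il2rb took 77.2% of the reads of the set (exact Clopper-Pearson 95% interval 76.4 to 78.0%). In ILC2 the IL-2 alpha chain Il2ra took 62.3% (61.7 to 62.8%). In MNK-3 no gene took so large a part: Il2rb held 29.2% and 33.0%, Il7r 22.9% and 24.6%, and Il2ra 17.7% and 18.0%. These shares are ratios within a library, so they do not depend on how libraries are scaled to each other.

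**Figure D1:**
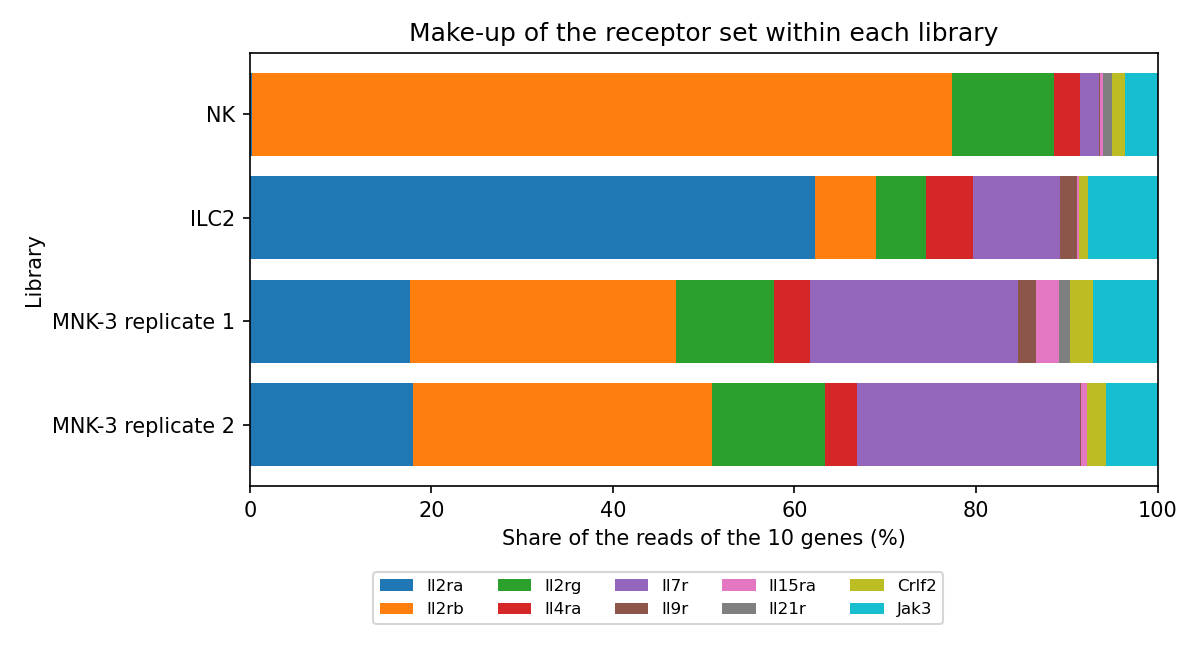
Share of the reads of the 10 genes (horizontal axis, percent) in each library, with 1 coloured segment per gene. Il2rb fills 77.2% of the NK bar and Il2ra 62.3% of the ILC2 bar, whereas the MNK-3 bars are divided mainly among Il2rb, Il7r and Il2ra.

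Divided by exon length, which allows levels to be compared between genes, Il2rb led the set in NK at 426 CPM per kb, followed by Il2rg at 111 CPM per kb and Crlf2 at 23.5 CPM per kb. In ILC2 the order was Il2ra at 395, Il2rg at 83.8, Il7r at 74.6, Il2rb at 57.0 and Jak3 at 52.1 CPM per kb. In MNK-3 replicates 1 and 2 it was Il2rb at 80.2 and 109, Il7r at 57.7 and 74.5, Il2rg at 53.2 and 73.1, and Il2ra at 36.5 and 44.5 CPM per kb. The order of all 10 genes was the same in both MNK-3 libraries, and the gap between Il7r and Il2rg was smaller than the spread between the replicates. Il15ra, Il9r and Il21r were the last 3 in ILC2 and in both MNK-3 libraries; in NK the last 3 were Il15ra, Il2ra and Il9r.

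**Figure D2:**
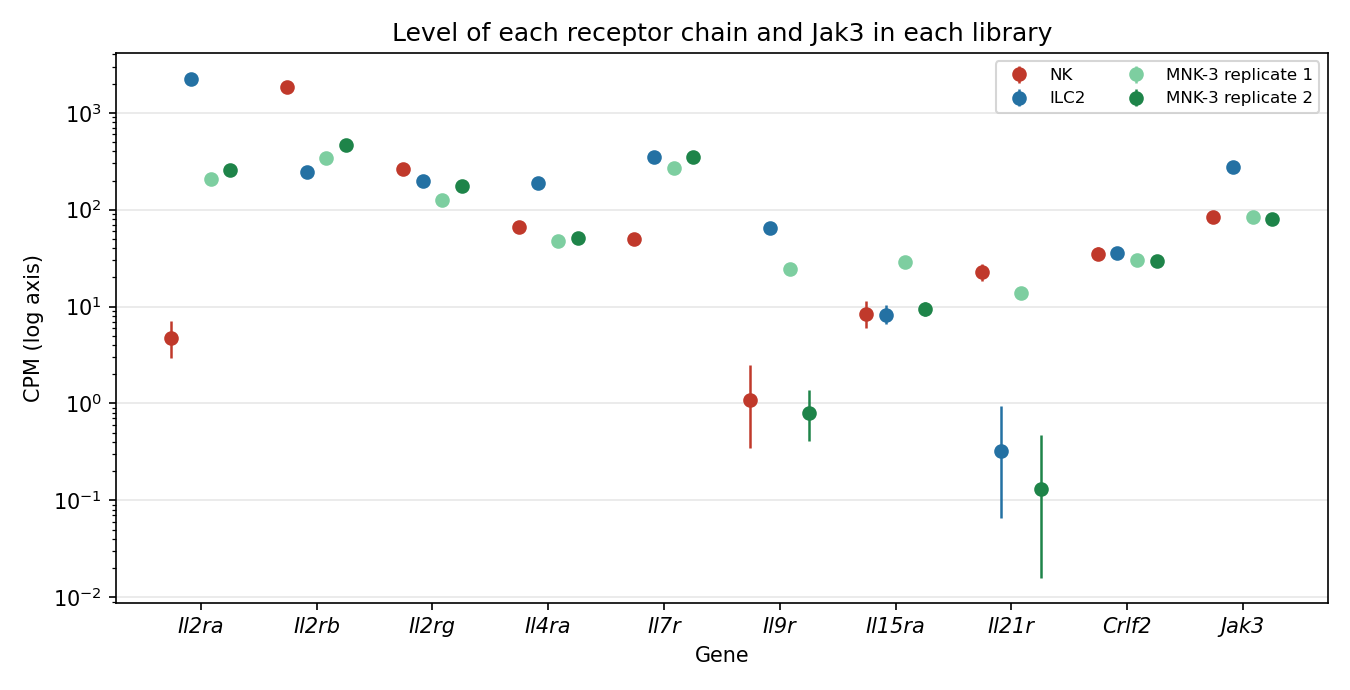
Level of each gene in each library on a log axis (CPM, not divided by length), with exact Poisson 95% intervals that are often smaller than the points. The ILC2 point is far above the NK point for Il2ra and far below it for Il2rb, while Crlf2 lies between 29.3 and 35.9 CPM in all 4 libraries.

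The gamma chain gene Il2rg (ENSMUSG00000031304, chrX:101264378-101268255, minus strand) varied over a narrower range than any private chain, 2.10-fold between its highest and lowest library. It had 266 CPM in NK (95% interval 251 to 281), 199.9 CPM in ILC2 (191 to 209), and 127 and 174 CPM in the MNK-3 pair (151 ± 33.6, SD, n = 2). NK was highest and both MNK-3 libraries were below ILC2. No comparison passed in the limma voom fit described below: the fitted log2 fold was -0.88 (SE 0.36, adjusted p = 0.393) for MNK-3 over NK, -0.46 (SE 0.32) for MNK-3 over ILC2 and -0.41 (95% bounds -1.23 to 0.41) for ILC2 over NK. Exons of the gene overlap those of Gm20489 on the same strand over 728 of their 2387 bp, and Gm20489 itself had 3 to 19 reads in a library. Reads that fit both genes could have been left out as ambiguous, which was not tested. The level of Il2rg per length may thus be too low, and ratios of other genes to it too high. All coordinates are those of mm10 in GENCODE M21.

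Jak3 (ENSMUSG00000031805, chr8:71676296-71690575, plus strand), the kinase bound to the gamma chain, was highest in ILC2. It had 84.5 CPM in NK (76.4 to 93.3), 279 CPM in ILC2 (268 to 290), and 83.5 and 80.6 CPM in the MNK-3 pair (82.1 ± 1.99, SD, n = 2). NK and MNK-3 were close, with a fitted log2 fold of -0.04 for MNK-3 over NK (95% bounds -1.16 to 1.08). Jak3 was lower in MNK-3 than in ILC2 by the fit (log2 fold -1.76, SE 0.32, adjusted p = 3.21e-06), in both MNK-3 libraries. Relative to Il2rg, per length, Jak3 stood at 0.142 in NK, 0.622 in ILC2, and 0.293 and 0.206 in MNK-3. Its 3' neighbour Insl3 shares 404 bp of exon on the same strand and had 5 to 37 reads, and reads that fit both could likewise be ambiguous.

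Il2rb (ENSMUSG00000068227, chr15:78479256-78495271, minus strand) was highest in NK cells. Its 1827 CPM there (1788 to 1866) compared with 244 CPM in ILC2 (234 to 255) and with 344 and 466 CPM in the MNK-3 pair (405 ± 86.4, SD, n = 2). NK was 7.47-fold above ILC2, and 5.31-fold and 3.92-fold above the MNK-3 libraries. By the fit Il2rb was lower than in NK both in MNK-3 (log2 fold -2.22, SE 0.22, adjusted p = 1.91e-21) and in ILC2 (log2 fold -2.90, SE 0.31, adjusted p = 3.13e-17). Between MNK-3 and ILC2 the fitted log2 fold was 0.69 (SE 0.29, adjusted p = 0.299), with both MNK-3 libraries above ILC2. Il2rb was the only member above Il2rg in NK per length, at 3.82 times its level (95% interval 3.60 to 4.06); in ILC2 it was at 0.680 times (0.640 to 0.724) and in MNK-3 at 1.51 and 1.49 times.

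Il2ra (ENSMUSG00000026770, chr2:11642807-11693193, plus strand), the chain that raises the affinity of the IL-2 receptor, had the widest range among members with over 20 reads in every library. It had 22 reads in NK (4.74 CPM, 2.97 to 7.18) and 20979 in ILC2 (2256 CPM, 2226 to 2287), with 208 and 254 CPM in the MNK-3 pair (231 ± 32.3, SD, n = 2). Both MNK-3 libraries lay between the single ILC2 and NK libraries. ILC2 was 476-fold above NK (exact interval 314 to 759, counting error only) and 10.8-fold and 8.89-fold above the MNK-3 libraries, which were in turn 43.9-fold and 53.5-fold above NK. The fit called Il2ra lower in MNK-3 than in ILC2 (log2 fold -3.32, SE 0.21, adjusted p = 7.59e-53). Against the NK library, with its 22 reads, neither ILC2 (log2 fold 8.86, SE 3.89, adjusted p = 0.724) nor MNK-3 (log2 fold 5.55, SE 3.89, adjusted p = 1.00) passed. Per length, Il2ra was 6.93 times as abundant as Il2rb in ILC2 (95% interval 6.64 to 7.24), 0.455 and 0.409 times in MNK-3, and 0.00195 times in NK.

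The 250 bases before the start of Il2ra are shown because this gene spanned the widest range; they come from RefSeq on GRCm38.p6 (chr2:11642542-11642791, plus strand) and hold no base of a GENCODE exon. RefSeq windows were found for 9 of the 10 genes (10 windows, as Il15ra has a pair), and each was searched on both strands for TTCNNNGAA, the palindrome that STAT factors bind, and for GATAA, the core bound by GATA factors. Neither string is in this window, which says only that these letters are not in it.
Il2ra: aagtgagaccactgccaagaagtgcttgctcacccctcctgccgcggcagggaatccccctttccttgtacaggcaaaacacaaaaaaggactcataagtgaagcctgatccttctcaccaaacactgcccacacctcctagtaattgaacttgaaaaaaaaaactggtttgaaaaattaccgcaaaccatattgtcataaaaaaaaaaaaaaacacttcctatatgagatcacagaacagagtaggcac

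Il15ra (ENSMUSG00000023206, chr2:11705290-11734317, plus strand), the alpha chain that presents IL-15, is the next protein-coding gene after Il2ra, 12.1 kb away on the same strand, and did not share its pattern. It had 8.41 CPM in NK (5.98 to 11.5), 8.28 CPM in ILC2 (6.54 to 10.4), and 29.0 and 9.55 CPM in the MNK-3 pair. Only MNK-3 replicate 1 was above the rest, at 3.04 times replicate 2. The ratio of ILC2 to NK was 0.985 (exact interval 0.662 to 1.49) for Il15ra and 476 for Il2ra beside it. The fit had wide bounds for Il15ra (log2 fold -6.88 to 6.82 for ILC2 over NK), and no comparison passed. On the other side of Il15ra, Fbh1 lay between 58.9 and 87.5 CPM in the 4 libraries.

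Il7r (ENSMUSG00000003882, chr15:9505788-9530176, minus strand), the IL-7 receptor alpha chain, was lowest in NK. It had 50.02 CPM in NK (43.8 to 56.9), 348 CPM in ILC2 (336 to 360), and 269 and 347 CPM in the MNK-3 pair (308 ± 55.3, SD, n = 2). ILC2 was 6.96-fold above NK (6.09 to 7.98), the MNK-3 libraries were 5.38-fold and 6.94-fold above NK, and ILC2 and MNK-3 replicate 2 were alike within counting error (ratio 0.998, 0.955 to 1.04). Il7r was called higher in ILC2 than in NK (log2 fold 2.80, SE 0.82, adjusted p = 0.0496), near the threshold of 0.05. For MNK-3 over NK the value lay just on the other side of it (log2 fold 2.58, SE 0.80, adjusted p = 0.0513), so the calls do not separate ILC2 from MNK-3, and the direct comparison gave -0.21 (95% bounds -0.73 to 0.31). Per length, Il7r stood at 0.891 times Il2rg in ILC2 (95% interval 0.841 to 0.944, counting error only), 1.08 and 1.02 times in MNK-3, and 0.0962 times in NK. Because Il2rg shares exon with Gm20489, which of the genes was higher in ILC2 and MNK-3 is not settled.

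Among the 10 promoter windows, 1 held TTCNNNGAA, the window of Il7r, against 7.02% of the 32851 windows of all genes. The 29 bases around the match are shown with its 9 bases in capitals (chr15:9530000-9530028, minus strand, GRCm38.p6); the match starts 142 bases before the RefSeq start, and whether a factor binds there was not measured. The GENCODE start of Il7r lies further upstream, so the whole window is inside the GENCODE gene. Of its 250 bases, 86 are in GENCODE exons.
Il7r: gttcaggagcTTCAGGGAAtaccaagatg

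Crlf2 (ENSMUSG00000033467, chr5:109554709-109558993, minus strand), which joins the Il7r product to form the TSLP receptor, was the most even member. It had 35.1 CPM in NK (29.96 to 41.0), 35.9 CPM in ILC2 (32.2 to 40.0), and 30.4 and 29.3 CPM in the MNK-3 pair (29.9 ± 0.797, SD, n = 2). The ratio of ILC2 to NK was 1.02 (exact interval 0.845 to 1.24), and the fitted log2 folds of MNK-3 were -0.23 over NK (95% bounds -2.39 to 1.93) and -0.26 over ILC2 (-1.57 to 1.05). The 2 chains of the TSLP receptor thus stood in different proportions: per length, Il7r was 0.456 times Crlf2 in NK, 3.11 times in ILC2, and 2.83 and 3.80 times in MNK-3.

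Il4ra (ENSMUSG00000030748, chr7:125552120-125579474, plus strand), the chain shared by the IL-4 and IL-13 receptors, was highest in ILC2. It had 67.1 CPM in NK (59.8 to 74.9), 187 CPM in ILC2 (179 to 196), and 47.4 and 50.5 CPM in the MNK-3 pair (48.9 ± 2.18, SD, n = 2). Both MNK-3 libraries were below NK as well as below ILC2. The fit called Il4ra lower in MNK-3 than in ILC2 (log2 fold -1.95, SE 0.37, adjusted p = 1.61e-05). ILC2 over NK gave a log2 fold of 1.48 (SE 0.68, adjusted p = 0.880) and MNK-3 over NK -0.47 (95% bounds -1.78 to 0.85). Il13ra1, the other chain of the receptor for IL-13, had at most 1.44 CPM in a library, and the decoy receptor gene Il13ra2 at most 0.859 CPM. The antisense gene Gm44876 overlaps 571 bp of Il4ra exons and had 0 to 6 reads; the strand setting used for counting is not given in the sources used here.

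Il21r (ENSMUSG00000030745, chr7:125603429-125633570, plus strand), the IL-21 receptor chain, follows Il4ra on chromosome 7, 24.0 kb away on the same strand, and was lowest where Il4ra was highest among the primary cells. It had 105 reads in NK (22.6 CPM, 18.5 to 27.4) and 3 reads in ILC2 (0.323 CPM, 0.0665 to 0.943), a ratio of NK to ILC2 of 70.2 (exact interval 23.4 to 346, counting error only). In MNK-3 it had 358 reads in replicate 1 (13.97 CPM) and 2 in replicate 2 (0.132 CPM, 0.0160 to 0.476), so the level of the line is not settled by the pair. Leaving out replicate 1 moved the log2 ratio of MNK-3 over NK by size from -1.62 to -5.19. No comparison of Il21r passed in the fit, where the SE was 2.79 or more. On the far side of Il21r, Gtf3c1 lay between 200.3 and 323 CPM.

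Il9r (ENSMUSG00000020279, chr11:32187541-32200279, minus strand), the IL-9 receptor chain, was highest in ILC2. It had 5 reads in NK (1.08 CPM, 0.350 to 2.52) and 602 in ILC2 (64.7 CPM, 59.7 to 70.1), with 626 reads (24.4 CPM) and 12 reads (0.791 CPM, 0.409 to 1.38) in MNK-3 replicates 1 and 2. ILC2 was 60.1-fold above NK (exact interval 25.6 to 186), 2.65-fold above MNK-3 replicate 1 and 81.9-fold above replicate 2 (46.5 to 159). The fit passed in no comparison of Il9r, with adjusted p = 0.321 for MNK-3 over ILC2 (log2 fold -2.95, SE 1.25) and an SE of 5.75 for ILC2 over NK. Without replicate 1 the log2 ratio of MNK-3 over NK by size went from 3.05 to -0.29. Its ligand Il9 was also highest in ILC2, at 84.5 CPM against 0.216 CPM in NK and 0.468 and 0.0659 CPM in the MNK-3 pair.

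The window before Il9r is printed because it was the 1 member window with GATAA, a string found in 22.6% of the 32851 windows. It holds 3 matches, in capitals, of which those on the other strand read TTATC (RefSeq, chr11:32200280-32200529, minus strand, GRCm38.p6), and no base of it lies in a GENCODE exon.
Il9r: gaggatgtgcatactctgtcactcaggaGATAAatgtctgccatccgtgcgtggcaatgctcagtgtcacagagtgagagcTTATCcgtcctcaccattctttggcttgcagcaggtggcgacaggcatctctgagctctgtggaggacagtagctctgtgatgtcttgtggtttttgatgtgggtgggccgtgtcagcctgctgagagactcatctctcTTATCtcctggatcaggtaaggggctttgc

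The MNK-3 replicates were close for the 7 members strongest in that line and far apart for the 3 weakest. The log2 ratio of replicate 1 over replicate 2 lay between -0.46 and 0.05 for Il2ra, Il2rb, Il2rg, Il4ra, Il7r, Crlf2 and Jak3, beside a median of -0.29 over protein-coding genes with 100 CPM or more. It was 4.27 for Il9r, 4.52 for Il21r and 1.56 for Il15ra. Replicate 1 was above replicate 2 in most weak genes: among genes within 2-fold of the level of Il9r the median was 1.62, and 13.6% of those genes differed by as much as Il9r or more. The corresponding shares were 7.09% for Il21r and 29.3% for Il15ra. In replicate 1 these genes had 127 (Il9r), 108 (Il21r) and 167 (Il15ra) reads per kb, and the 95th percentile for protein-coding genes with 0 reads in replicate 2 was 70.7. Those genes are no matched reference, since Il9r, Il21r and Il15ra had 12, 2 and 145 reads in replicate 2. The part of the reads outside genes in the 3 levels of replicate 1 was not tested.

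**Figure D3:**
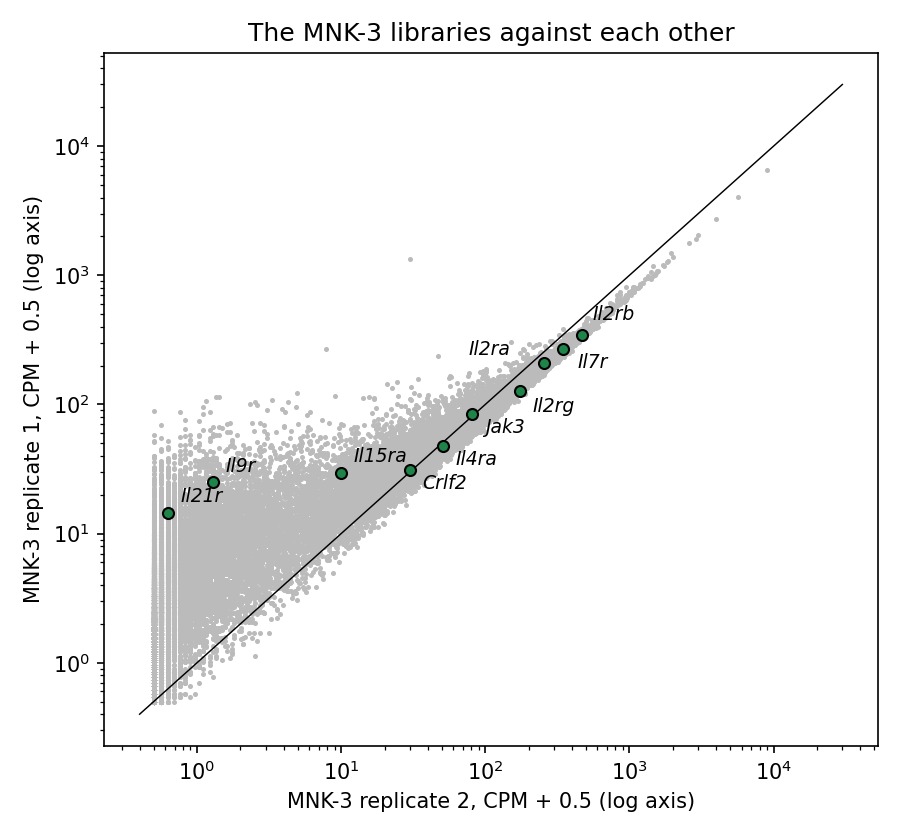
CPM plus 0.5 in MNK-3 replicate 1 (vertical) against replicate 2 (horizontal), both on log axes, with all shared genes in grey, the 10 receptor genes in green and the line of equal values. Il9r, Il21r and Il15ra lie above the line with most weak genes, and the other 7 lie on or close below it.

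Tests used a limma voom fit of all 4 libraries, in which the MNK-3 pair gives the only measure of spread and the single NK and ILC2 libraries are assumed to vary as that pair does. Of 25283 genes tested, 2.33% were called at an adjusted p under 0.05 for MNK-3 over NK, and 1 of the 10 receptor genes was, Il2rb, lower in MNK-3, as were 2.04% of all genes. For MNK-3 over ILC2 3.27% of genes and 3 of the 10 were called, namely Il2ra, Il4ra and Jak3, each lower in MNK-3; of all genes 2.37% were called lower and 0.902% higher. For ILC2 over NK 1.30% of genes and 2 of the 10 were called, Il7r higher (0.479% of all genes) and Il2rb lower (0.819%). These comparisons share libraries, so they are not independent of each other. Each of the 6 calls was lost when libraries were scaled by trimmed means over all genes or by medians of ratios, with the direction kept and adjusted p from 0.717 to 1.00; replicate 1 carries the largest factor in both of those scalings. The calls of Il4ra and Jak3 for MNK-3 over ILC2 and of Il7r for ILC2 over NK were also lost with trimmed means over genes at 100 CPM or above, and that of Il7r with no filter on low counts.

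**Figure D4:**
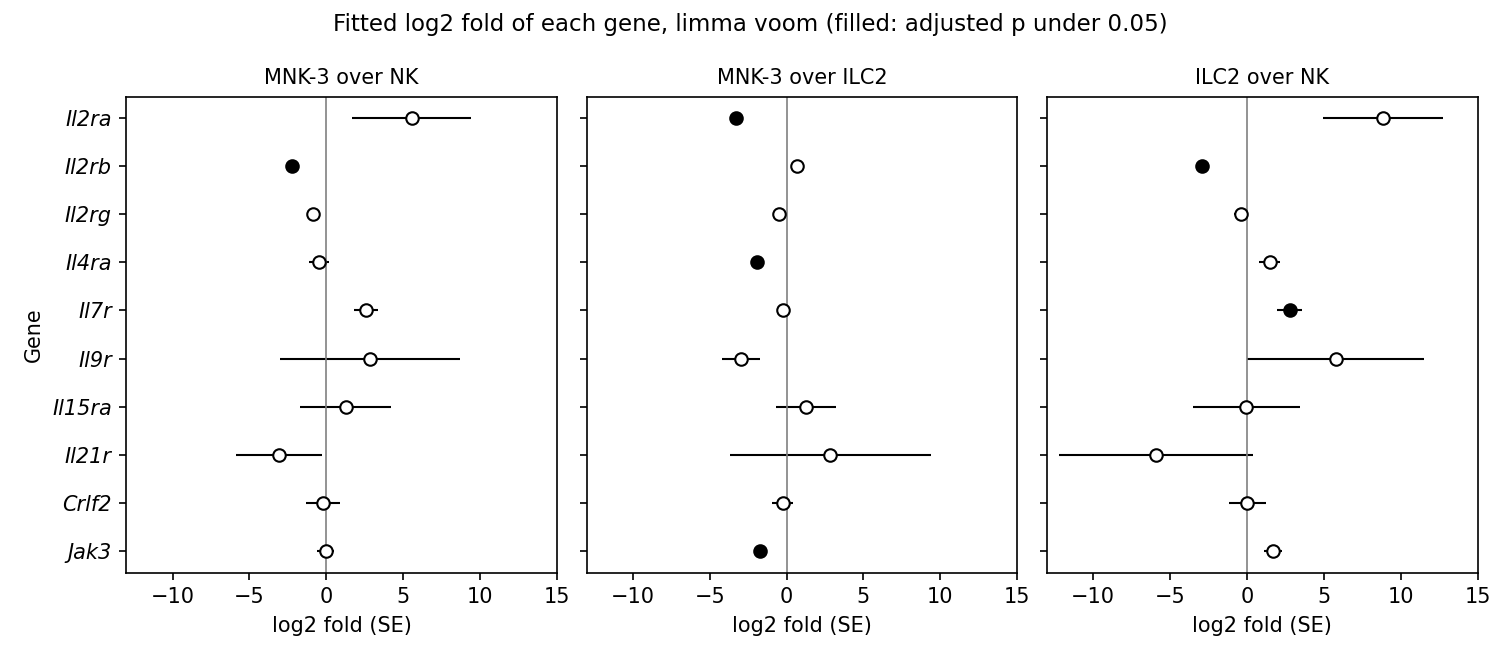
Fitted log2 fold with its SE for each gene in the 3 comparisons (limma voom), filled where the adjusted p is under 0.05. Filled points are Il2rb in MNK-3 over NK, Il2ra, Il4ra and Jak3 in MNK-3 over ILC2, and Il2rb and Il7r in ILC2 over NK. The bars are widest for Il9r, Il21r and Il15ra, and for Il2ra in the comparisons with NK, where it had few reads.

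By size alone, with no test, a gene counted if it differed 4-fold or beyond and the higher group had 10 CPM or above. Between ILC2 and NK 6.51% of genes and 5 of the 10 met this: Il2ra, Il7r and Il9r higher in ILC2 (3.79% of all genes), and Il2rb and Il21r lower (2.73%). Jak3 and Il4ra fell short of 4-fold, with log2 ratios of 1.72 and 1.47. For MNK-3 over NK 9.35% of genes and 4 of the 10 did, Il2ra, Il7r and Il9r higher (7.34% of all genes) and Il2rb lower (2.01%); without replicate 1 it was 3, Il2ra and Il7r higher and Il21r lower, while Il2rb (log2 ratio -1.97) fell short of 4-fold and Il9r turned to -0.29. For MNK-3 over ILC2 8.05% of genes and 2 of the 10 did, Il2ra and Il9r, both lower in MNK-3 (1.73% of all genes, with 6.32% higher), and Il4ra had a log2 ratio of -1.93. The median log2 ratio of the 10 genes was -0.14 for MNK-3 over NK, -0.33 for MNK-3 over ILC2 and 0.75 for ILC2 over NK, beside medians over all genes tested of 0.88, 1.12 and -0.26. Without replicate 1 the first 2 medians were -0.27 and -0.33 for the receptor genes and -0.26 and 0.00 for all genes.

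Most of the 7 cytokine genes listed as ligands of these receptors had low levels. Il13, whose receptor shares the Il4ra chain, was not on that list. It had 1663 CPM in ILC2, 0.431 CPM in NK, and 10.9 and 0 CPM in the MNK-3 pair. Of the 7 ligand genes (Il2, Il4, Il7, Il9, Il15, Il21 and Tslp), 0 of 7 were called in any comparison by limma voom or by limma trend. Of all genes, limma voom called 2.33% for MNK-3 over NK, 3.27% for MNK-3 over ILC2 and 1.30% for ILC2 over NK. With only 7 genes, 0 called is near those shares. At an unadjusted p under 0.05 (limma voom) there was 1, lower in MNK-3 than in ILC2, and 0 in the other comparisons. Of the 7, only Il9 and Il4 exceeded 10 CPM in a library, both in ILC2. Il9 had 84.5 CPM there, and Il4 had 15.9 CPM against 1.08 CPM in NK and 8.63 and 1.98 CPM in the MNK-3 pair. Il15, which supports NK cells, had 6.68 CPM in NK, 0.323 CPM in ILC2, and 3.36 and 3.43 CPM in the MNK-3 pair. Il2 and Tslp had at most 1.09 CPM anywhere.

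Among the genes of kinases and STAT factors, Jak1 was called in all 3 comparisons and Jak2 in those with ILC2. Jak1, the kinase on the partner chains, had 3054 CPM in NK, 817 CPM in ILC2, and 423 and 557 CPM in the MNK-3 pair. It was called lower than in NK in MNK-3 (log2 fold -2.67, SE 0.20, adjusted p = 7.84e-37) and in ILC2 (log2 fold -1.90, SE 0.24, adjusted p = 4.52e-12), and lower in MNK-3 than in ILC2 (log2 fold -0.77, SE 0.22, adjusted p = 0.0162). Jak2, which serves the TSLP receptor with JAK1, had 179 CPM in NK, 792 CPM in ILC2, and 104 and 128 CPM in the MNK-3 pair, and was called in both comparisons with ILC2 (adjusted p = 5.07e-05 over NK and 9.13e-25 for MNK-3 over ILC2). Of the 9 genes described from this list, 0 were called higher and 3 lower for MNK-3 over NK (Jak1, Tyk2 and Stat4), 0 higher and 3 lower for MNK-3 over ILC2 (Jak1, Jak2 and Stat3), and 1 higher and 2 lower for ILC2 over NK (Jak2 against Jak1 and Stat4). Of all genes tested, 0.289% were called higher and 2.04% lower in the first of these comparisons, 0.902% and 2.37% in the next, and 0.479% and 0.819% in the last. Stat5a and Stat5b, the main STAT factors of IL-2, IL-7 and IL-15, lay between 44.5 and 86.7 CPM and between 141 and 236 CPM, and were called in no comparison. For MNK-3, 0 of the 9 were higher than NK or ILC2 at an unadjusted p under 0.05 as well (limma voom). The median log2 ratio of the 9 genes was -0.62, -0.60 and -0.10 in that order of comparisons.

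Feedback and target genes of the pathway (11 genes) leaned towards lower values in MNK-3. Against ILC2 6 were called lower and 1 higher, where 600 (2.37%) of all 25283 genes were called lower and 228 (0.902%) higher, with 7 lower and 1 higher at 2-fold by size and a median log2 ratio of -1.87 (without replicate 1 also 7 and 1, with a median of -2.97). Over all genes 1332 were lower and 13981 higher at 2-fold, and 3202 and 3391 without replicate 1. Cish, a feedback inhibitor induced through STAT5, had 6.04 CPM in NK, 103 CPM in ILC2, and 15.7 and 6.26 CPM in the MNK-3 pair, and was called lower in MNK-3 than in ILC2 (log2 fold -3.10, SE 0.71, adjusted p = 0.000748). The others called lower were Socs3, Pim1, Pim2, Myc and Ccnd2, and Bcl2, a survival gene, was called higher (log2 fold 1.80, SE 0.50, adjusted p = 0.0121). Against NK 4 of the 11 were called lower in MNK-3, namely Ccnd2, Ccnd3, Mcl1 and Pim1, and 0 higher (also 0 higher at an unadjusted p under 0.05), beside 2.04% of all genes lower and 0.289% higher. Ccnd2, which encodes cyclin D2, had 614 CPM in NK, 359 CPM in ILC2, and 21.1 and 4.15 CPM in the MNK-3 pair. Between ILC2 and NK 2 were called lower in ILC2, Bcl2 (52.9 against 312 CPM) and Mcl1 (218 against 528 CPM), and 0 higher (1 at an unadjusted p under 0.05), beside 0.819% of all genes lower and 0.479% higher; Cish was not called there (log2 fold 4.06, SE 3.51).

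Adaptors and phosphatases of the pathway (10 genes) moved in both directions. Irs2, a docking protein of the IL-4 receptor, had 174 CPM in NK, 803 CPM in ILC2, and 1009 and 1497 CPM in the MNK-3 pair, and was called higher than in NK in MNK-3 (log2 fold 2.80, SE 0.39, adjusted p = 1.48e-10) and in ILC2 (log2 fold 2.20, SE 0.42, adjusted p = 3.19e-05). Its relative Irs1 had 1.72 CPM in NK and 0.323 CPM in ILC2 but 33.9 and 39.2 CPM in the MNK-3 pair, and passed in no comparison. Pik3r1, a regulatory subunit of phosphoinositide 3-kinase, ran the other way at 968 CPM in NK, 250.05 CPM in ILC2, and 93.5 and 91.1 CPM in the MNK-3 pair, and was called lower in all 3 comparisons. Against ILC2, MNK-3 had 4 of the 10 called lower (Grb2, Gab2, Sos1 and Pik3r1), beside 2.37% of all genes, and 0 higher (3 at an unadjusted p under 0.05), beside 0.902%. ILC2 over NK had 2 higher (Sos1 and Irs2) and 1 lower, beside 0.479% and 0.819% of all genes, and MNK-3 over NK 1 higher and 1 lower, beside 0.289% and 2.04%. Under the scalings by trimmed means over all genes and by medians of ratios, the counts called of the kinase and adaptor lists were 0 in every comparison, and those of the feedback list at most 3; with trimmed means over genes at 100 CPM or above the feedback list had 0 in every comparison.

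**Figure D5:**
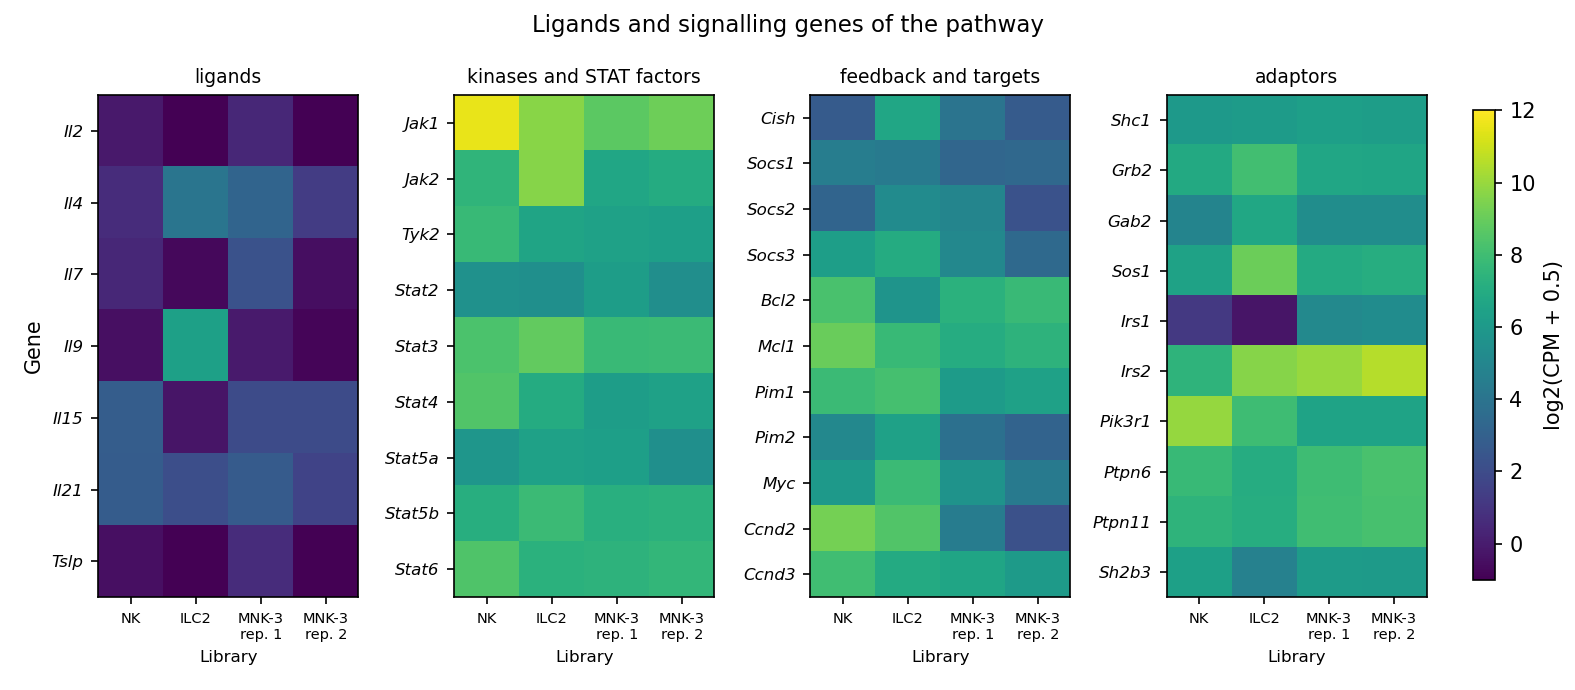
log2(CPM + 0.5) of the ligands, kinases and STAT factors, feedback and target genes, and adaptors (rows) in each library (columns), on 1 colour scale. Jak1 is brightest in NK, Il9, Jak2, Sos1 and Cish stand out in ILC2, Irs2 is brightest in MNK-3, and Ccnd2 is dark in MNK-3 only.

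Genes with the most similar profile over the 4 libraries were found by the distance between log2(CPM + 0.5) values centred on each gene's own mean, among 4948 genes with a mean of at least 50 CPM; this is a description over 4 points. The nearest to Il2ra were Ly6a (distance 0.97), Hk2 and Npnt, and Ly6a had 0.862 CPM in NK, 530 CPM in ILC2, and 96.4 and 126 CPM in the MNK-3 pair. Il2rb was nearest to Pdcd4 (0.22), Anxa1 and Malat1, and Il2rg to Psme1 (0.07), Actr3 and Arpc1b. Il7r was nearest to Nudcd2 (0.09), Aurka and Hist2h2ac, and Il4ra to Ncoa3 (0.13), Ppp2r3a and Magt1. Jak3 was nearest to Snd1 (0.13), Selenos and Pabpc4, and Crlf2 to Rad54l2 (0.07) and Pigk. For the members with unequal MNK-3 replicates the nearest were Enah (1.10), Sh3pxd2b and Irf4 for Il9r, Mum1 (0.40), Tbc1d14 and Slc35b4 for Il15ra, and Rasgrp2 (1.13), Aff3 and Prag1 for Il21r. The distances to the nearest gene were largest for Il2ra, Il9r and Il21r.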

How the data were processed

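Total RNA was isolated from 4 samples with an RNeasy Plus Micro kit, and stranded libraries (SMARTer Pico Input chemistry) were sequenced as pairs of 38 bp reads, per the labels' protocols. The protocols mention 2 technical replicates; each library has a single column, and pooling of runs is not stated in the sources used here. Alignment used STAR 2.7.8a and counting used HTSeq on mm10, per the submitters' processing notes. What the authors deposited are whole-number HTSeq counts per gene without normalization (unit type: other), over 53465 genes for NK and ILC2 and 31053 for MNK-3.

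CPM was taken over the 30731 genes common to all; the remaining genes held 0.0399% to 3.05% of the reads assigned to genes in a library. Entries naming no gene held 25.9% to 76.5% of reads and were left out. Genes passing a count of 10 (scaled by library size) and a total of 15 were tested by limma voom (limma 3.58.1, R 4.3.3), with library totals, 3 groups and 1 residual degree of freedom. The prior degrees of freedom were infinite, so each SE rests on the spread pooled over genes. Tests were two-sided, with Benjamini-Hochberg adjustment over all 25283 genes. Sizes are log2 ratios of CPM plus 0.5, with the mean of the MNK-3 pair. The fit was also run on simulated counts with the same dispersion for all genes and no excess of weak genes in MNK-3 replicate 1. That setting is simpler than these data, so it does not show how the fit behaves on them. The rule for named genes took all 10 members, the list genes that were called or had the largest ratio at 10 CPM or more, the nearest protein-coding gene on each side of a member, and the 3 nearest profiles; a gene of the kinase and STAT list and 1 nearest profile are not reported here. The members and lists were chosen with earlier results of these data known. Alternatives were other scalings, thinning, other gene sets, filters, pseudocounts and tests, and leaving out a MNK-3 library.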

Additional observations from a re-analysis of the deposited data

How the results depend on the processing

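The fitted direction of each of the 10 genes was kept under every alternative that gave a value, except for 2 values near zero: Jak3 in MNK-3 over NK went from -0.04 to 0.0035 with totals over each file's own genes, and Il15ra in ILC2 over NK from -0.03 to 0.31 (TMM, trimmed means of M values), 0.32 (median of ratios) and 0.036 (thinned to 4637812 reads per library). By size, Il9r in MNK-3 over NK ranged from -0.29 to 3.98 when 1 MNK-3 library was left out.

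The number of receptor genes called for MNK-3 over NK (1) was 0 under TMM and under median of ratios, 2 after thinning and with own-gene totals, and 3 with limma trend. For MNK-3 over ILC2 (3) it was 0 under TMM and median of ratios and 1 (Il2ra) under TMM restricted to genes at 100 CPM or more. For ILC2 over NK (2) it was 0 under TMM and median of ratios, 1 (Il2rb) under TMM at 100 CPM and with no filter, 5 after thinning and 6 with limma trend. Where limma voom called 0, unadjusted p under 0.05 gave 2 and 2 for MNK-3 over NK, 4 and 1 for MNK-3 over ILC2, and 2 and 1 for ILC2 over NK, under TMM and median of ratios. Thinning and limma trend called Il2ra, Jak3 and Il4ra higher in ILC2 than in NK, and with thinning, own-gene totals and limma trend Il7r was called higher in MNK-3 than in NK. At 4-fold by size, MNK-3 over ILC2 gave 4 receptor genes in place of 2 under TMM and median of ratios.

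Over all genes, calls for MNK-3 over NK (590, 73 higher and 517 lower) were 134 under TMM (2 higher and 132 lower), 99 under median of ratios and 95 under TMM at 100 CPM (0 higher in both), 389 with no filter, 1588 after thinning (811 higher) and 3058 with limma trend (2207 higher). For MNK-3 over ILC2 (828, 228 higher) they were 86 (2 higher), 50 (0 higher), 255 (22 higher), 1278 after thinning (623 higher) and 2247 with limma trend (1482 higher); with no filter 76 of 574 were higher. For ILC2 over NK (328, 121 higher) they were 0 under TMM and median of ratios (589 and 469 at unadjusted p under 0.05, limma voom), 43 under TMM at 100 CPM (8 higher), 183 with no filter, 1076 after thinning (582 higher) and 2030 with limma trend (1232 higher). Counts at 4-fold by size ranged from 2140 to 3654 for MNK-3 over NK and from 1481 to 3659 for MNK-3 over ILC2 when 1 MNK-3 library was left out. The fitted median over all genes moved from 0.56 to 0.61 (TMM) and 0.31 (median of ratios) for MNK-3 over NK, from 1.21 to 0.90 and 0.60 for MNK-3 over ILC2, and from -0.77 to -0.43 and -0.42 for ILC2 over NK. The causes of these changes were not tested.

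Leaving out an MNK-3 library ends all residual degrees of freedom, so it was done for sizes only. No paired analysis was possible because NK and ILC2 have 1 library each and share no set of replicate numbers with MNK-3. Members with 22 or fewer reads in a library were Il2ra and Il9r in NK, Il21r in ILC2, and Il9r and Il21r in MNK-3 replicate 2. Il2ra kept its 22 reads in NK under thinning and limma trend, which called it higher in ILC2 than in NK. The part of depth in the wide SE of these members was not tested.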

Other observations

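Receptor chains of other cytokines (24 type I chains outside the gamma chain family) held further contrasts between the libraries. Il12rb1, shared by the IL-12 and IL-23 receptors, was present in all, at 38.4 CPM in NK, 213 CPM in ILC2, and 116 and 126 CPM in the MNK-3 pair. Its IL-12 partner Il12rb2 had 249.9 CPM in NK, 0.430 CPM in ILC2, and 26.3 and 9.09 CPM in the MNK-3 pair. Of the 24 chains, Il12rb2 was the 1 called in MNK-3 over NK (lower), beside 2.33% of all genes called. Il23r, the IL-23 partner of Il12rb1, had 0 reads in NK and in ILC2 and 209 and 306 CPM in the MNK-3 pair. Csf2rb, the beta chain shared by the IL-3, IL-5 and GM-CSF receptors, had 186 CPM in ILC2 against 0.216 CPM in NK and 20.2 and 0.395 CPM in the MNK-3 pair. It was the 1 chain called in MNK-3 over ILC2 (lower, just under the threshold of 0.05), beside 3.27% of all genes called. The copy Csf2rb2 had 85.5 CPM in ILC2, and reads that fit both could be split between them. For ILC2 over NK 0 of the 24 were called by limma voom, beside 1.30% of all genes, with 1 at an unadjusted p under 0.05. By limma trend 3 were called there, beside 2030 of all 25283 genes. These counts are near the shares of all genes. Il27ra was as even as Crlf2, between 47.2 and 51.3 CPM.

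MNK-3 replicate 1 weighs on this list: by size 12 of the 24 chains were 2-fold higher in MNK-3 than in NK and 1 lower, and without replicate 1 the counts were 3 and 10. Over all 25283 genes tested the counts were 11244 higher and 1557 lower, and 3613 and 6581 without replicate 1, so 12 of 24 is near the share of all genes that were higher. The median log2 ratio went from 1.04 to -0.90, beside 0.88 to -0.26 over all genes tested.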
